A study of Drosophila melanogaster with 2 samples.

Results

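Candidate binding regions whose summits lie in coding exons numbered 756 of the 30000 pooled candidates (2.52%) from a ChIP-seq experiment on Drosophila melanogaster embryos. A region was counted when its summit lay in annotated protein-coding sequence (CDS), outside every 5′ UTR, and more than 500 bp from every annotated transcription start site (TSS), TSSs of transposable elements not counted. The choice rests on position alone, so signal and membership of the final list describe the regions and did not select them. The material was mixed-sex whole embryos collected between 0 and 16 hours of age. They carry a stable transgene, CG9437 fused at its C terminus to green fluorescent protein (GFP), and the strain label gives hng1 as the insertion's target. The 2 biological replicates form 1 group with 1 common control alignment and no second condition, chromatin was sheared by sonication to 200 to 800 bp, and no statement here compares treatments. Both samples carry a description as input control, while their assay and antibody fields and the file types are those of a transcription factor ChIP; the lists are read here as ChIP peak lists. Each replicate has its own list of 30000 candidates, as have the pooled replicates, and the final list is the 6091 strongest of the pooled candidates. Signal is the authors' value for each region, its scale is not shared between lists, and read depth is unknown. Whole embryos mix all cell types, so a weak site in many cells and a strong site in few cells cannot be told apart, and the promoter that drives the fusion gene is not given in the sources used here.

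hng1 (hinge1) encodes a MADF-BESS protein. Proteins of this family bind DNA through the MADF domain, contact partner proteins through the BESS domain, and include Adf1, a sequence-specific activator first studied at the Alcohol dehydrogenase gene. Transcription factors are usually mapped to promoters, introns and intergenic enhancers, but exons can also hold regulatory sequence, and a ChIP fragment centred on an exon can reach into the flanking introns or UTRs. The candidate lists are named by their file type as peaks together with background. They serve as input for the irreproducible discovery rate (IDR), a procedure that keeps peaks ranked alike in both replicates.

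The sequences that follow come from 5 of the 25 final coding-exon regions, chosen to show regions with and without 1 word and not as the strongest, and are printed as 30 bases in the direction of the host gene, from the RefSeq reference of dm6. The first 3 hold that word, ACGTAA, which 6 of the 25 hold near the summit and which was taken over from earlier work on these data, and capitals mark it; in the last 2, which have no copy within 50 bp of the summit, the capital marks the summit base.
aay (chr3L:9424360-9424389, plus strand): tgagatacgtatACGTAAggcggtggggga
Atg18a (chr3L:8187563-8187592, plus strand): aaccagaacataACGTAAgttacagtgcac
CG34398 (chr2L:8931313-8931342, plus strand): tgacgtacgtatACGTAAcgaatttagcca
Pde1c (chr2L:11816570-11816599, minus strand): agtgagccagctgcGgagccggcagatggc
gukh (chr3R:19017583-19017612, plus strand): gccggcgagtacgtcAccatagcagacatc
The aay bases lie wholly past the coding sequence, which ends 4 bp beyond the summit. The word in Atg18a crosses the end of coding exon 1 of 5, with 2 of its bases in the exon and the others in the intron. The copy in CG34398 is coding throughout. aay and CG34398 share a run of 13 bases that ends with the word, and that run occurred within 50 bp of 16 pooled summits, 8 of them final. Those 8 include the aay and CG34398 regions from which the run was taken, so the count is no independent support. Of all 1579 pooled candidates with the word, 621 (39.3%) were final.

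Coding exons were sparsely populated by candidates, and the candidates there were weak. The class covers 18.4 Mb, or 13.7% of the arms' length, and held 41.1 candidates per Mb, against 117 in 3′ UTRs, 165 in intergenic sequence, 234 in introns and 528 within 500 bp of a TSS. Median signal was 47.5 (quartiles 42.0 and 58.3), against 60.0 for candidates in the other classes outside promoters and 66.6 for all candidates. The median rank by signal was 22708 of 30000 (95% interval 22069 to 23379), against 16966 for the other classes outside promoters. The final list took 25 coding-exon candidates (3.31%; exact Clopper-Pearson 95% interval 2.15 to 4.84), against 20.3% of all candidates and 13.6% of candidates outside promoters. For single classes the share was 10.6% in 3′ UTRs (8.44 to 13.2), 11.8% in intergenic sequence (11 to 12.7) and 15.2% in introns (14.6 to 15.8), so the coding-exon interval lies below those of all the classes named. These intervals cover counting over regions, which are not independent replicates.

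The replicates' own lists placed coding-exon candidates in the same part of the ranking. Replicate 1 had 1305 candidates in coding exons and replicate 2 had 665. Of these, 22 (1.69%) were among the 6091 strongest candidates of replicate 1, and 23 (3.46%) among those of replicate 2. Median ranks were 22236 in replicate 1 and 22338 in replicate 2. The replicates therefore differed in how many exonic candidates filled the weak end, while the number near the top differed by 1. In bins of 3000 ranks, coding exons made up 0.400% of the strongest pooled candidates and 5.43% of the weakest. The corresponding shares were 0.400% and 8.30% in replicate 1, and 0.367% and 5.33% in replicate 2.

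**Figure D1:**
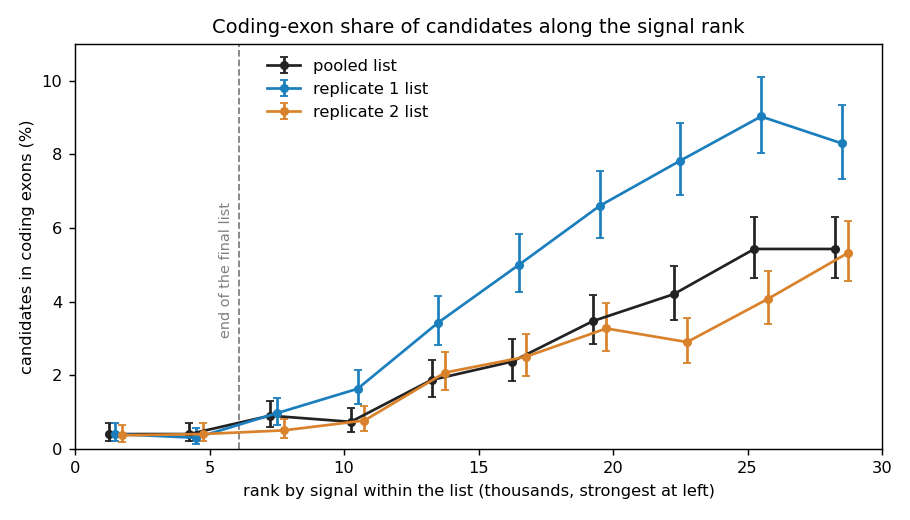
Share of candidates that lie in coding exons (%, vertical axis) in bins of 3000 ranks by signal (horizontal axis, strongest at left) for the pooled list and each replicate's list, with exact 95% intervals. All 3 lists are at or below 0.400% in both bins that start before rank 6000, and they part in the weak tail, where replicate 1 reaches 9.03%.

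Few coding-exon candidates were seen in both replicates. A replicate summit within 100 bp was found for 458 of 756 (60.6%) in replicate 1 and for 303 (40.1%) in replicate 2. Both replicates had one for 154 (20.4%; 17.6 to 23.4), against 41.3% (40.6 to 42.0) of candidates in the other classes outside promoters, and for 149 (19.7%) neither had. Among final candidates the shares were close: 23 of 25 in coding exons (92.0%; 74.0 to 99.0) had a summit in both replicates, against 93.3% in the other classes. Among non-final candidates the shares were 17.9% (15.2 to 20.9) in coding exons and 32.9% in the other classes. Turned round, 154 of the 1305 coding-exon summits of replicate 1 had any replicate 2 summit within 100 bp, and 149 of the 665 of replicate 2 had a partner in replicate 1. Where both replicates had a summit, pooled signal over the summed signal of the replicates had a median of 0.996.

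Base composition moved with these values. G+C in the 101 bp around the summit had a median of 52.5% in coding-exon candidates, close to that of coding sequence of the class cut into windows of the same width (53.5%), against 37.6% in the other classes outside promoters. Outside coding exons the final share was 22.9% for candidates of up to 35% G+C, 10.6%, 8.16%, 6.57% and 4.87% in the next 4 bins of 5 points each, and 5.51% over 55%, so most of the drop lay below 40% G+C. In coding exons it ran from 0 of 11 candidates of up to 35% G+C to 3.83% (1.85 to 6.93) of the 261 candidates over 55%. In the 50 to 55% bin it was 3.33% (1.35 to 6.75) in coding exons, against 4.87% (3.85 to 6.08) in the other classes. In the 35 to 40% bin it was 2.08% (0.0527 to 11.1; 48 candidates) in coding exons, against 10.6% (9.64 to 11.7). The coding-exon share was the lower in each of the 6 bins, and in each bin the intervals of coding exons and other classes overlapped. The part of base composition in the low final share was not tested. Final and non-final coding-exon candidates had medians of 53.5% and 52.5% G+C, while in the other classes they had 31.7% and 38.6%.

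**Figure D2:**
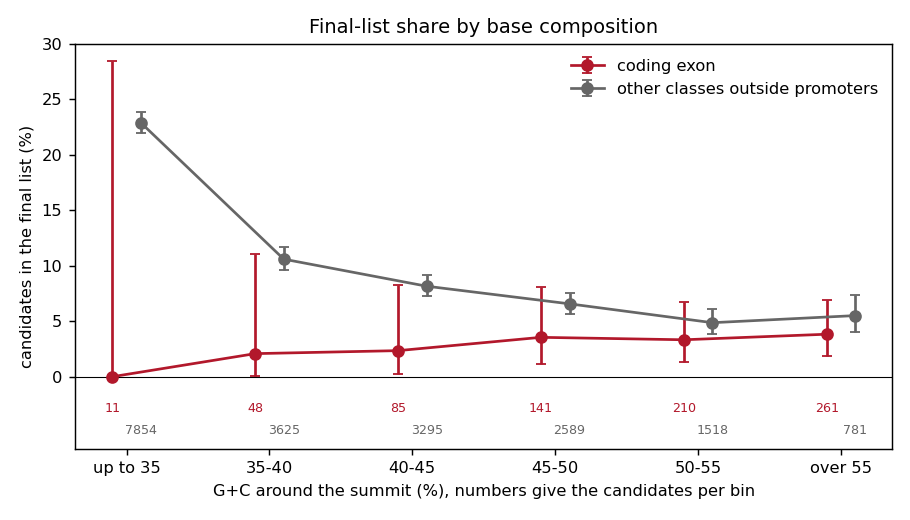
Percentage of candidates in the final list (vertical axis) by G+C in the 101 bp around the summit (horizontal axis), for coding exons and for the other classes outside promoters, with exact 95% intervals and the number of candidates per bin. The grey series is highest at 22.9% in the lowest G+C bin and stands at 4.87% and 5.51% in the highest pair of bins, and the coding-exon series lies between 0 and 3.83% throughout.

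Distance to the TSS gave another contrast. In the other classes outside promoters the final share was 20.6% at 501 to 1000 bp, 17.6% at 1001 to 2000 bp, 12.9% at 2001 to 5000 bp and 10% beyond. In coding exons the shares over the same distances were 3.81%, 2.31%, 4.08% and 2.78%, with no order that exceeds their intervals. Closer in, 536 further summits lay in CDS within 500 bp of a TSS and were not counted here. Of these, 55 (10.3%) were final, against 34.7% of all candidates within 500 bp of a TSS. The 64 coding-exon candidates at 501 to 600 bp had a median signal of 48.2 with 3 final, and the 88 CDS summits at 401 to 500 bp had a median of 51.1 with 5 final. Nearest to the limit were obst-H, a chitin-binding gene of the obstructor family, inside it (503 bp, signal 39.3), and the cytochrome P450 gene Cyp6d5 outside it (499 bp, signal 77.3).

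The 25 final candidates lay in 24 genes. In rank order, aay encodes phosphoserine phosphatase, the last enzyme of serine synthesis. Its region (chr3L:9423846-9424788) had a signal of 938 in replicate 1 (rank 174), 1246 in replicate 2 (rank 126) and 2167 in the pooled list (rank 138). The summit lay at 99.5% of the length of its single coding exon, and the promoter of aay also held a final peak, of signal 947. aay was the strongest coding-exon candidate in the pooled list, and its nearest stronger summit was 60010 bp away.

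Cpr47Ea, a cuticle protein gene, followed with 779 in replicate 1 (rank 242), 687 in replicate 2 (rank 264) and 1341 pooled (rank 265). That summit, at 11252139 on 2R, lay 9 bp from the edge of coding exon 3 of 3 and 200 bp from a stronger summit (1563) in the 3′ UTR. CadN, the N-cadherin gene, had a pooled signal of 1065 (rank 371) at 17715764 on 2L, in coding exon 8 of 22. It had no replicate summit within 100 bp; the nearest lay 287 bp away in replicate 1 and 275 bp away in replicate 2, close to the intron summit of signal 7737 that is 286 bp from it in the pooled list. The exonic summit of CadN is thus separate in the pooled list only. Its merged region was 1155 bp wide, with 16.5% of it coding.

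Atg18a, a phosphoinositide-binding autophagy gene, had signals of 430.2 in replicate 1 and 598 in replicate 2, with 996 pooled (rank 409). Only 13.1% of that region was coding. Usp15-31, a ubiquitin-specific protease gene, had 431 in replicate 1, 481 in replicate 2 and 889 pooled (rank 487), and its region (chr2R:24744285-24744697) was wholly coding. Both stood more than 100000 bp from any stronger summit. Fhos, a formin that assembles actin filaments, had 233 in replicate 1 and 593 in replicate 2, with 699 pooled, and lay 220 bp from an intron summit of 2371. Pde1c, a cyclic nucleotide phosphodiesterase gene, had 409 in replicate 1, 245 in replicate 2 and 642 pooled, 190208 bp from the next stronger summit. The replicates ordered Fhos and Pde1c differently, with Fhos ahead at rank 327 in replicate 2 and Pde1c ahead at rank 639 in replicate 1.

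gukh, whose product binds the scaffold protein Discs large, had 306 in replicate 1, 241 in replicate 2 and 563 pooled in a wholly coding region. otp (orthopedia), a homeobox transcription factor gene, had 423 in replicate 1 (rank 611), 129 in replicate 2 (rank 2889) and 539.6 pooled. The uncharacterised gene CG34398 had 285 in replicate 1, 180.3 in replicate 2 and 463 pooled. CG34398 was the only host of 2 final candidates. Its other one, with a pooled signal of 161, lay 232 bp from the first, so the pair shares an exon and overlapping regions and is not independent. Vha26, a subunit gene of the vacuolar proton pump, had 156 in replicate 1 (rank 2695), 293 in replicate 2 (rank 897) and 427 pooled, 200 bp from an intron summit of 1773.

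These 11 candidates ranked between 138 and 1504 in the pooled list, and the other 14 ranked from 2983 to 6011, with no coding-exon candidate between. MTA1-like, a gene of the nucleosome remodelling and deacetylase family, headed the lower set with 78.5 in replicate 1 (rank 6232), 186 in replicate 2 (rank 1717) and 261 pooled. Sdb (211 pooled), l(3)mbn (209), the guanine nucleotide exchange factor gene Ziz (199), the nuclear positioning gene klar (188) and PsGEF (188), another exchange factor gene, came next. klar differed most in the direction of replicate 1, with 146 in replicate 1 (rank 2930) and 40.7 in replicate 2 (rank 13074). CG5167 differed most in the direction of replicate 2, with 30.7 in replicate 1 (rank 19517), 116 in replicate 2 (rank 3339) and 167 pooled. The remaining hosts were CG42748 (179), the cytochrome c oxidase subunit gene COX4L (172), nolo (163), a gene related to ADAMTS proteases, CG6330 (156), CG31675 (151) and CG10357 (150.2). Of the 25, 14 were among the 6091 strongest candidates of both replicates, 9 of 1 replicate and 2 (CadN and CG31675) of neither.

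**Figure D3:**
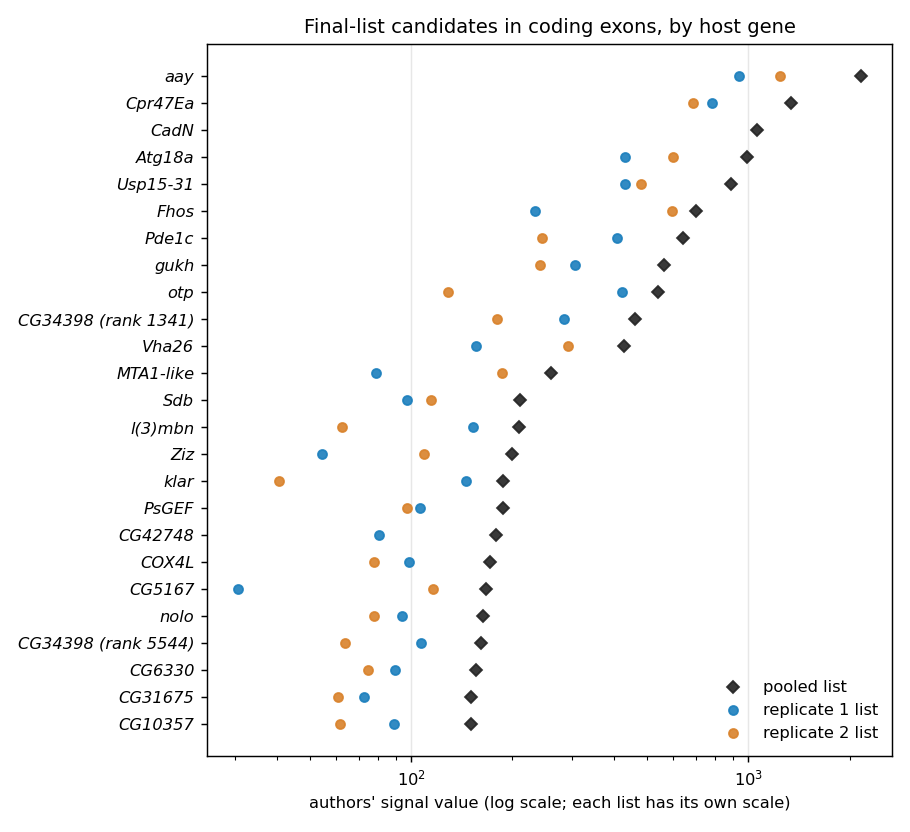
Signal (horizontal axis, log scale) of the 25 final coding-exon candidates, labelled by host gene from strongest at the top to weakest, in the pooled list (diamonds) and in each replicate's list (circles, where a summit lies within 100 bp). CadN has no circle and CG42748 has none for replicate 2, and klar and CG5167 show the widest gaps between replicates.

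A summit in an exon does not place the whole region there. The median coding part of a region was 75.7% for all 756 candidates, 47.4% for the final ones and 76.2% for the non-final ones. Final candidates numbered 13 of the 153 regions under 50% coding (8.50%; 4.60 to 14.1) and 12 of the 603 others (1.99%; 1.03 to 3.45). Summits also lay near the edges of coding sequence: 30.6% (27.3 to 34.0) were within 50 bp of an edge, and 14 of the 25 final ones (56.0%; 34.9 to 75.6), against 21.1% of positions spread evenly through the class. In a window of fixed width around the summit, 79.6% of candidates had 50% or more of the window in CDS, against 92.9% of those positions. The candidates were thus placed closer to noncoding sequence than evenly spread positions were. More of the final ones lay near an edge, but not all did. Regions wholly in CDS made up 7 of the 25 final ones (28.0%; 12.1 to 49.4), against 22.4% of all 756.

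Some exonic summits lay beside a stronger summit. No pooled summit of the class lay closer than 199 bp to a stronger one, and none did in the other classes outside promoters. Of the 756, 71 (9.39%) lay at 199 to 250 bp, against 14.5% in those other classes. The regions of 102 (13.5%; 11.1 to 16.1) overlapped that of the nearest stronger candidate, against 21.1% in the other classes. Among final candidates the count was 8 of 25 (32.0%; 14.9 to 53.5), against 11.2% (10 to 12.4) in the other classes, and these 8 lay in Cpr47Ea, CadN, Fhos, Vha26, Ziz, PsGEF, CG5167 and CG34398. The stronger neighbours of the 102 were themselves in coding exons for 40, in introns for 30, at promoters for 15, in 3′ UTRs for 9 and in other classes for the rest. With the 102 left out, an alternative added after the data were seen, 17 of 654 coding-exon candidates (2.60%) were final.

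**Figure D4:**
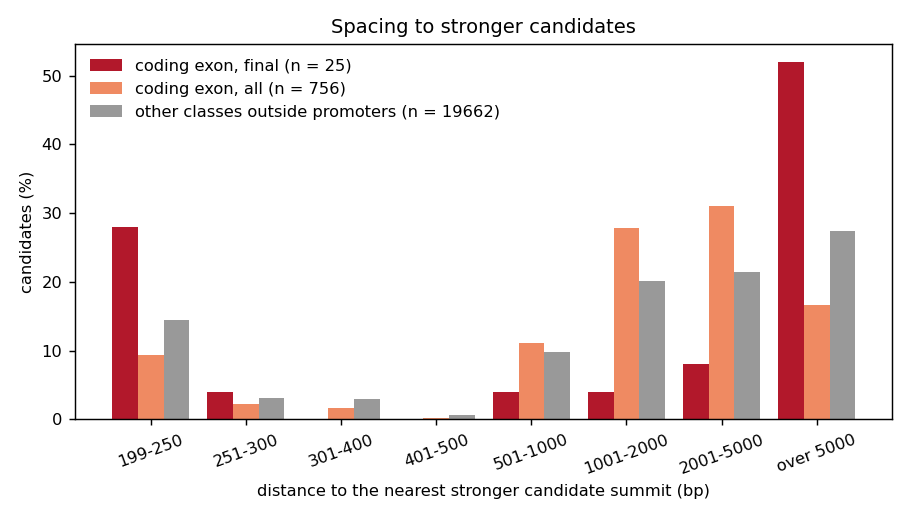
Percentage of candidates (vertical axis) by distance to the nearest stronger summit (horizontal axis, bp) for the 25 final coding-exon candidates, all 756 coding-exon candidates and the other classes outside promoters. The final coding-exon bars stand at 28.0% at 199 to 250 bp and 52.0% beyond 5000 bp, with little between; strong summits have few stronger neighbours by construction.

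The 10 strongest candidates outside the final list had signals of 128 to 143 and ranks of 6351 to 7157. They lay in CG42748, the Dpp target gene Dtg, the immunoglobulin superfamily gene DIP-zeta, the chitin deacetylase gene Cda5, Usp15-31, the tetraspanin gene Tsp42Ee, the mitochondrial import gene Tim17b1, the gamma-glutamyl transferase gene Ggt-1, Socs36E, an inhibitor of JAK/STAT signalling, and CG13138. Of these, 7 lay within 250 bp of a stronger summit. DIP-zeta, Tsp42Ee and Tim17b1 were the exceptions. DIP-zeta had 63.7 in replicate 1, 53.7 in replicate 2 and 141 pooled, and Tim17b1 had 75.9 in replicate 1, 51.9 in replicate 2 and 133 pooled. Socs36E had no summit within 100 bp in replicate 1.

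Within their genes the candidates were spread over all parts of the coding sequence. The summit lay at a median of 52.9% of the CDS length, with 21.3% of candidates in the first 20% and 24.3% in the last 20%, against 12.7% and 22.7% of evenly spread positions. The first of several coding exons held 117 (15.5%; 13.0 to 18.3), inner exons 378 (50%; 46.4 to 53.6), the last exon 208 (27.5%; 24.4 to 30.8) and single-exon genes 53 (7.01%; 5.30 to 9.07). Evenly spread positions gave 9.45%, 56.8%, 25.6% and 8.14% in the same order. First coding exons were thus held more often than their length, with the 500 bp next to every TSS left out of both counts. The sequence was coding in every coding transcript of the host for 639 candidates (84.5%; 81.7 to 87.0), against 86.5% of positions, and for 17 of the 25 final ones. CadN, gukh, klar, PsGEF, CG42748, CG6330 and both CG34398 candidates lay in sequence that is coding in only some coding transcripts of the host. Final candidates made up 8 of 117 (6.84%; 3.0 to 13.0) there, against 17 of 639 (2.66%; 1.56 to 4.23) in sequence coding in every one.

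The word ACGTAA was found within 50 bp of the summit in 30 of 756 coding-exon candidates (3.97%; 2.69 to 5.62), against 1.59% of equal windows tiled over the class and 4.67% of candidates in the other classes outside promoters. Final coding-exon candidates held it in 6 of 25 (24.0%; 9.36 to 45.1) and non-final ones in 24 of 731 (3.28%; 2.11 to 4.85). In the other classes the word was in 9.15% (8.10 to 10.3) of final and 3.94% of non-final candidates, so the interval of the 25 reaches that of the other final candidates. In all, 10.2% of final candidates held it. Because the word was taken over from earlier work on these data, these contrasts are no independent support for it. The hosts of the 6 included aay, Atg18a, Usp15-31, CG34398 and Sdb. Their windows held 3 copies in aay, of which 2 overlap each other in the CDS, 2 in Sdb and 1 each in the others, and all but Atg18a had a copy wholly in coding sequence. Among all 30 candidates with the word, 23 had such a copy. The strongest non-final holders were CHKov2 (signal 128), CG1737 (118) and sv (96.7), the Pax gene shaven. The contrast with the tiles has a limit. More candidate summits than tile centres lay within 50 bp of a coding edge (30.6% against 21.1%). The candidates' windows thus reached noncoding sequence more often, and the part of this in the word's share was not tested.

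For each of the other 5 words counted on either strand, the share of the class's own tiles lay within the interval of the coding-exon candidates or at its edge. CGATA was in 14.6% (12.1 to 17.3) of candidates, against 12.1% of tiles. GAGAG, the core bound by GAGA factor, was in 11.6%, against 12.3%, and CAGGTAG, bound by Zelda, in 1.19%, against 0.955%. CACGTG was in 1.46%, against 1.53%. TATCGATA, the element bound by DREF at housekeeping promoters, was in 1 candidate (0.132%; 0.00335 to 0.735), against 0.0864% of tiles and 2.58% of promoter candidates. A word in a window is a description of letters and not a site.

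The 756 candidates lay in 667 host genes, 5.44% (5.05 to 5.86) of the 12260 genes with coding sequence in the class. A single candidate was held by 593 of them, 64 held 2, and 10 held 3 or more. Cda5 held the most, with 5 candidates of signal 46.4 to 137, none final. Fhos held 4, with the final one at 699 and the others at 58.0 to 68.8. Sdb also held 4, at 211, 108, 51.9 and 49.2, and CG33978 held 4 on chromosome 4, at 43.1 to 71.9. gukh held 3, at 563, 80.5 and 47.7. In Fhos and gukh the final region was thus far stronger than the other regions of the gene, and in Sdb less so.

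Longer genes were hosts more often, although the candidates were thinner on them. In 4 groups of like size, from the shortest to the longest coding length in the class, 1.60%, 4.54%, 5.88% and 9.76% were hosts, while candidates per Mb of coding sequence came to 68.7, 64.8, 46.3 and 32.7. Genes with a final peak at their own promoter were hosts in 226 of 3309 cases (6.83%; 5.99 to 7.74), against 217 of 3220 (6.74%; 5.90 to 7.66) with a non-final promoter candidate and 224 of 5731 (3.91%; 3.42 to 4.44) with none. Coding length differed too, with medians of 1254, 1143 and 821 bp in that order. Per Mb of coding sequence the values were 43.3, 46.8 and 34.9. Of the 25 final candidates, 10 lay in genes with no promoter candidate, among them Cpr47Ea, Usp15-31, Pde1c, otp, Vha26 and COX4L. Such genes held 243 of the 756 candidates, so the final share there was 4.12% (1.99 to 7.44), near the 3.31% of the class. In 8 of the 25, among them aay, CadN, Atg18a and gukh, the exonic signal was above that of every candidate at the host's promoter.

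Of 15 gene groups counted, cuticle proteins and adhesion genes were the 2 that held a final candidate, 1 each. Over all groups 2 of 47 candidates were final (4.26%; 0.520 to 14.5), near the 3.31% of the class. Chemosensory receptor genes, which detect odours and tastes mostly in sensory neurons, had 15 candidates in 14 of 176 genes (7.95%) and the highest density of the 15 groups, 90.1 per Mb, with a median signal of 44.2 and none final. All genes gave 5.44% and 41.1 per Mb, and the second of the 4 length groups, which holds the receptor genes' median coding length of 786 bp, gave 64.8 per Mb. Gr89a was the strongest of them, at 97.1. Cuticle protein genes had 3 hosts of 94 (3.19%), of which Cpr47Ea was final. Ribosomal protein genes had 1 host of 55 (1.82%), RpL23 at 47.5, and 42 of the 55 had a final peak at the promoter. Their median coding length in the class was 227 bp, and the shortest of the 4 length groups gave 1.60% hosts. Density was 65.3 per Mb in these genes, from 1 candidate. Ion channel genes had 4 hosts of 18, led by the sodium channel gene para at 48.3, and adhesion and planar polarity genes had 4 of 22, led by CadN. Muscle and cytoskeleton genes also had 4, of 24, at 13.7 per Mb, with bt, the projectin gene, at 85.3. Extracellular matrix genes had 3 of 13, led by the nidogen gene Ndg at 47.3.

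None of the remaining groups held a final candidate. Signalling receptor genes had 2 hosts of 25, led by smo, the Hedgehog signal transducer, at 51.4. Polycomb group genes had 2 of 17, led by Asx at 55.9. Median signals were 45.3 in the receptor group and 51.9 in the Polycomb group, against 47.5 for all coding-exon candidates. Hox and segmentation genes had 2 of 31, with the Hox gene Dfd at 42.7. Chromatin regulator genes had 1 host of 25, kis at 49.3, and transcription machinery genes 1 of 15, the Mediator gene skd at 40.9. Translation factor genes had 1 of 15, eIF4A, at 61.9. The 31 histone genes and the 6 MADF-BESS genes had none. hng1 itself had 2 candidates, both at its promoter, the stronger at 277, and no summit in its CDS. hng2 had 1 and hng3 had 2 CDS summits, all within 500 bp of a TSS, and Adf1 had none.

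Chromosome arms differed in density. Per Mb of coding sequence in the class, chromosome 4 held 86.9 candidates (exact Poisson 95% interval 54.5 to 132; 22 candidates) and X held 26.9 (21.6 to 33.1; 88 candidates). Arms 2L, 2R, 3L and 3R held 41.5 to 44.7. Both replicates placed X lowest, at 42.5 in replicate 1 and 21.4 in replicate 2, and chromosome 4 highest, at 90.9 in replicate 1 (23 candidates) and 146 in replicate 2 (37 candidates). In replicate 1 the next arm, 3R, was at 82.7, so the lead of chromosome 4 there was small and rests on 23 candidates. In replicate 2 the next arm, 2L, was at 41.2. On chromosome 4 replicate 2 had the more candidates, although replicate 1 had more in all. Candidates of every class ran at 177 per Mb of arm on chromosome 4 and 216 on X, against 213 to 247 on the others, so coding exons supplied 9.21% of the candidates of chromosome 4 and 1.73% of those of X. Coding sequence had a median G+C of 40.6% on chromosome 4, 55.4% on X and 52.5 to 53.5% elsewhere. Embryos were of both sexes, so X is present at a lower copy number than the autosomes. The part of these features in the densities was not tested. None of the 22 on chromosome 4 was final, the strongest being sv at 96.7, and 1 of the 88 on X was, in PsGEF. The final share of the whole class was 3.31%, so counts this small do not set either arm apart.

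**Figure D5:**
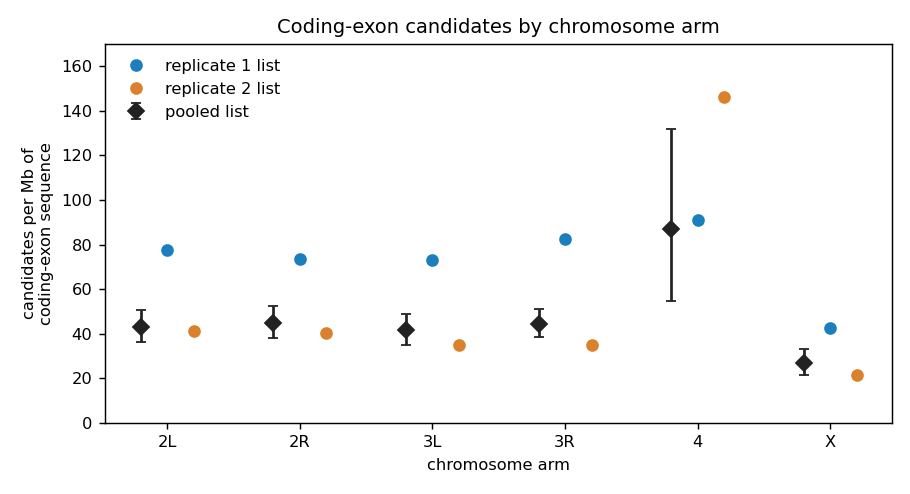
Candidates per Mb of coding-exon sequence (vertical axis) on each chromosome arm, for the pooled list (diamonds, with exact Poisson 95% intervals) and each replicate's list (circles). Chromosome 4 stands highest and X lowest in all 3 lists, and replicate 1 lies above replicate 2 on every arm but chromosome 4, where the order is reversed (90.9 and 146).

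In position, 76 candidates (10.1%; 8.0 to 12.4) lay inside a further annotated gene as well, so the named host is the gene whose CDS holds the summit and not the only gene at that place. aay was 1 of these, overlapping Atat. None of the 756 lay in an annotated transposable element, with an exact 95% upper bound of 0.487%.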

How the data were processed

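The lists come from 2 biological replicates of 1 group, each called with 1 common control alignment on dm6, and from the pooled replicates, per the manifests deposited with the samples. The sources used here do not name the aligner, the caller or the IDR threshold. Per the manifests the lists are in narrowPeak format. The deposited signal value of each region was ranked and summarised within its list. For matched summits, signals were also set side by side across lists. Pooled signal was divided by the summed signal of the replicates, and single regions were compared between replicates. These comparisons cross lists whose scale is not shared, so they describe the deposited values only. The deposited −log10 q values were not used. Annotation was Ensembl release 115, and sequence was read from the RefSeq reference of the same assembly.

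Each summit received 1 class, with promoter (within 500 bp of a TSS) first, then 5′ UTR and coding exon, then 3′ UTR, remaining exons, introns and intergenic sequence. Evenly spread positions are the centres of 101 bp tiles over the coding-exon class. Replicates were matched at 100 bp. Shares carry exact Clopper-Pearson 95% intervals, which cover counting only. No test was made, since the design has 1 group. Class assignment was checked with a second method, and word counts and intervals were tested on simulated data.

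Members, the 15 gene lists and the 6 words were chosen with earlier results of these data known. Named genes are all final members, the 10 strongest others, the 5 hosts with most members, the strongest member of each list, hng1, hng2, hng3 and Adf1, and the summits nearest the 500 bp limit. Sequences are printed for 5 of the 25 final members, and those of the others are not reported here. CHKov2, CG1737 and sv were named after their values were seen. Alternatives were other TSS distances, CDS definitions, match distances and word windows, a shorter final list and each replicate alone. Software was scipy 1.17.1, pandas 2.3.3 and numpy 2.4.6 under Python 3.11.15, with matplotlib 3.10.9 for figures.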

Additional observations from a re-analysis of the deposited data

How the results depend on the processing

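Of the alternatives tried, 60 values stayed within 1.5 times the reported count or inside the reported 95% interval, and 15 did not. The median rank stayed inside its interval in every alternative run for it. The number of final coding-exon candidates was 40 with a TSS limit of 250 bp, 16 with 1000 bp, 12 where 50% of the region had to be coding and 12 for the 3045 strongest final peaks. For the last 2 the final share was 1.99% and 1.59%. The shorter list also takes a smaller part of all candidates than the 20.3% of the full list, so a lower share follows from its length. The share found in both replicates was 17.4% where 50% of the region had to be coding, 13.6% with summits within 50 bp, 27.9% within 200 bp and 37.6% for any overlap of regions. ACGTAA was in 1.72% of candidates with 25 bp searched either side of the summit and in 7.14% with 100 bp. With each replicate's own list in place of the pooled one, candidates numbered 665 to 1305, final ones 22 to 23, the final share was 1.69% to 3.46%, the median rank 22236 to 22338, the share with ACGTAA 2.84% to 4.81% and host genes 575 to 1125. Leaving out chromosome 4 or the regions that overlap a stronger one, both added after the data were seen, moved none of the 7 values past these limits. No paired analysis was possible because the study has 1 group. Depth is unknown, and with 2 replicates and 25 final candidates small differences in shares were not detectable.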
